A study of Mus musculus with 12 samples.

Results

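The 3 untreated libraries of a 12-library series were chosen by their label, which gives no treatment, and they are described here by gene level alone. They were made from total RNA. The labels name Hepa1-6, a line of mouse hepatoma cells, give the tissue as liver and the source as murine hepatocellular carcinoma. The other groups of the series, with 3 libraries each, received mIFNalpha, an anti-PD-1 antibody or the combination, and they are not used below. Strain, age and growth in culture or as a tumour in mice are not stated in the labels. The labels name the same line for all groups, so the series covers 1 cell line by label. Nothing in the labels tells if the replicates were separate cultures or animals. The spread given below is therefore the spread between these 3 libraries, which may be technical.

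Hepatoma cells derive from hepatocytes, the liver cells that secrete most plasma proteins. Fetal hepatocytes make alpha-fetoprotein (Afp) in large amounts and silence it after birth, while albumin (Alb) continues through adult life and the enzymes of the urea cycle, bile acid synthesis and drug metabolism mature late. Hepatomas often express Afp again and lose part of the mature enzyme programme. In tissue, hepatocytes lie among endothelial cells, macrophages, stellate cells and fibroblasts, whose transcripts appear in bulk RNA.

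The libraries held 32.5, 31.3 and 32.6 M (mega) counted reads in replicates 1, 2 and 3, and 15678 to 16097 of 21878 genes had at least 1 count. Levels are given in FPKM, fragments per kilobase of transcript and per M fragments, which corrects for gene length and depth, as mean ± SD over n = 3 libraries. A count of 3, used here as the floor of detection, corresponded to 0.0921 to 0.0958 counts per M. Across the 10624 genes at or above 1 FPKM, log2(FPKM + 1) of replicates 1 and 2 had a Pearson r of 0.990, against 0.979 for replicates 1 and 3 and 0.984 for replicates 2 and 3. These are correlations across genes, which are not independent replicates. Replicate 3 therefore stood somewhat apart, and the number of genes differing by more than 1 on this log2 scale was 88 between replicates 1 and 2, 290 between replicates 1 and 3 and 219 between replicates 2 and 3.

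The label of the cells was borne out by their marker: Afp had 3698, 3677 and 3456 FPKM in replicates 1, 2 and 3. All 3 libraries were high and close to each other (3611 ± 134 FPKM, SD, n = 3), and Afp was the fourth most abundant gene of the table. Leukocyte, fibroblast and endothelial transcripts were present as well, and they are described with their levels below.

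Afp and Alb are neighbours on mouse chromosome 5 and come from the same gene family. Its other members there are the vitamin D-binding protein Gc and the vitamin E-binding protein afamin (Afm). In the mm10 assembly and GENCODE M21, Alb lies at chr5:90460897-90476602, Afp at chr5:90490737-90508907 and Afm at chr5:90518932-90553543, all on the plus strand, with gaps of 14.1 and 10.02 kb, and Gc at chr5:89417522-89457898 on the minus strand. Alb was the most abundant gene in the table, with 4372, 3851 and 4194 FPKM in replicates 1, 2 and 3. Gc had 107, 101 and 143 FPKM, and Afm had 6.04, 3.68 and 3.75 FPKM. Levels within the family thus spread over a wide range, and the order Alb, Afp, Gc, Afm was the same in every library.

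The promoters of these 4 genes are shown because the family spans the range from the most abundant gene to a scarce one. Each is the RefSeq window from 250 bases before to 50 bases after the start site (GRCm38.p6), 5′ to 3′, with capitals for the letters TATAAA of a TATA box, an element that places the start of transcription, searched on both strands.
Alb, chr5:90460620-90460919, plus strand: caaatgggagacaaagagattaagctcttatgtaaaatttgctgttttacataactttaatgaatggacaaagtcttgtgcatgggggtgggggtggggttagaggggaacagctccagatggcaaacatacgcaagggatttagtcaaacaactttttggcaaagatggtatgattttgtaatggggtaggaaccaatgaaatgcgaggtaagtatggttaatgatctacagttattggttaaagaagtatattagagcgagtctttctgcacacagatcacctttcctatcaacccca
Afp, chr5:90490464-90490763, plus strand: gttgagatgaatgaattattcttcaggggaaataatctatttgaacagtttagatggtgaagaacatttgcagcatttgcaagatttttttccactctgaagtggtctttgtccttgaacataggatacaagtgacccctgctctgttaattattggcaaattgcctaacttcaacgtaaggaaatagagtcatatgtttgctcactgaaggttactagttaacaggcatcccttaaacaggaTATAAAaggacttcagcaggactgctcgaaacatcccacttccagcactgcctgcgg
Gc, chr5:89457849-89458148, minus strand: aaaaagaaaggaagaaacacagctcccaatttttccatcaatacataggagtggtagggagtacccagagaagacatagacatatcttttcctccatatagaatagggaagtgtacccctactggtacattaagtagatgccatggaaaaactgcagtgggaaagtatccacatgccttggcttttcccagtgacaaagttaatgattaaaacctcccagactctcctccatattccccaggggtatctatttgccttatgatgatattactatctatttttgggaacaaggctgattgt
Afm, chr5:90518699-90518998, plus strand: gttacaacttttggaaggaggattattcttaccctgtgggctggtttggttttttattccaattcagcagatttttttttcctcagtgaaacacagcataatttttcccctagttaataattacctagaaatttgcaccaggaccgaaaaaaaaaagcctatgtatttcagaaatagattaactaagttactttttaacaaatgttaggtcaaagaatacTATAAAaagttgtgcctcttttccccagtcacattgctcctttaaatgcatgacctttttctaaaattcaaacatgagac
The letters were found in Afp, beginning 7 bases before the RefSeq start, and in Afm, beginning 30 bases before it, and in neither Alb nor Gc. The GENCODE start given above lies downstream of the RefSeq start for Afp and upstream of it for Afm. Both distances therefore depend on the annotation, and their difference has no weight. The letters were thus present at 3611 ± 134 FPKM (Afp) and at 4.49 ± 1.34 FPKM (Afm), and not found at 4139 ± 265 FPKM (Alb; SD, n = 3 each). Among all 16275 genes of the table with a RefSeq window, 14.6% held them in at least 1 window, as did 8.80% of the 8258 expressed at 1 FPKM or more. They were found in 8 of 17 serum protein genes with a window, 4 of 10 apolipoproteins and 1 of 16 coagulation genes. Complement genes held them in 2 of 10 and adult hepatocyte genes in 11 of 26. Outside the liver lists they were found in 1 of 9 T cell genes and 0 of 11 macrophage genes. The fibroblast, pericyte and stellate cell list held them in 2 of 11 genes (18.2%). A match describes letters in a window and is not a site, and the lack of one says only that these letters are not there.

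Ribosomal proteins and secreted liver proteins made up most of the top of the transcriptome. Of the 30 genes with the highest mean FPKM, 19 encoded ribosomal proteins, among them Rpl41 (3908 ± 176 FPKM), Rps26 (3322 ± 269), Rps23 (2456 ± 403) and Rps2 (2152 ± 152). The 77 ribosomal protein genes, a class formed after the data were seen, held 21.1%, 23.5% and 20.01% of the summed FPKM of replicates 1, 2 and 3, and all 77 exceeded 1 FPKM. Their transcripts are short, and they held 7.01% ± 0.828 of the counts, so this share depends on the correction for length. The elongation factor Eef1a1, which brings aminoacyl-tRNA to the ribosome, stood beside them (3142 ± 261 FPKM).

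The secreted proteins in the top 30 were Alb, Igfbp1, Afp, Trf, Apoe and Rbp4. Igfbp1, a carrier of insulin-like growth factors, had 4561, 3772 and 3011 FPKM in replicates 1, 2 and 3. Its values overlapped those of Alb, Rpl41 and Afp, so the order of these 4 genes by mean is not settled, although Alb exceeded Afp in every library. Trf, the plasma iron carrier transferrin, followed at 3308, 2997 and 2923 FPKM. The iron storage subunits Ftl1 (2721 ± 264 FPKM) and Fth1 (2619 ± 318) also stood in the top 10, with overlapping values. The growth-associated protein Tpt1 (2046 ± 233 FPKM) was also in the top 30, with Apoe, a lipoprotein component (2372, 2107 and 1755 FPKM), and Rbp4, the plasma carrier of retinol (1534, 1594 and 1295 FPKM).

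**Figure D1:**
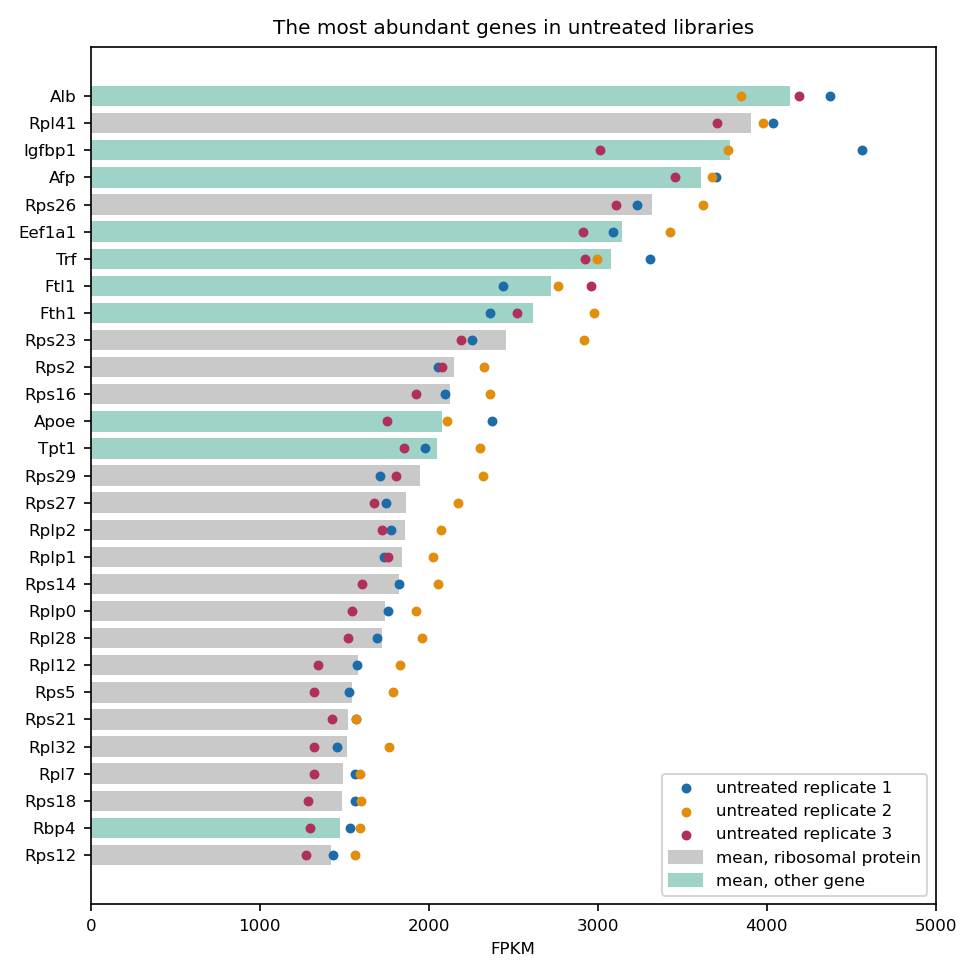
FPKM (x axis) of 29 of the 30 genes with the highest mean in the untreated libraries (y axis); bars are means over 3 libraries, points are single libraries, grey bars are ribosomal proteins. Alb, Igfbp1 and Afp stand among ribosomal proteins at the top, and the Igfbp1 points run from 3011 to 4561 FPKM.

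Ranked by counts, which favour long transcripts, the order differed. Fn1, the matrix and plasma protein fibronectin, came first with a mean of 348968 counts per library but was 70th by FPKM (736 ± 49.3), and complement C3 came ninth but was 108th by FPKM (443 ± 66.5). Trf, Alb and Afp followed Fn1 with means of 347498, 337257 and 322564 counts. Fn1 had 350884, 371086 and 324934 counts in replicates 1, 2 and 3, below both Trf and Alb in replicates 1 and 3. The order of Fn1, Trf and Alb by mean counts is therefore not settled. Alb and Afp were thus among the first 4 genes on both scales.

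Expression was spread over many genes. The 50 most abundant genes held 25.2%, 27.1% and 24.1% of the summed FPKM in replicates 1, 2 and 3, and the 500 most abundant held 57.3% ± 1.83. At or above 1 FPKM there were 10624 genes (48.6%), at or above 10 FPKM 4971 (22.7%) and at or above 100 FPKM 529 (2.42%). At the low end 5250 genes were listed at 0 FPKM in all 3 libraries. In 244 to 296 genes per library FPKM was 0 although reads were counted, and 13 genes at 1 FPKM or more had no counts in any library, so the tables treat some genes differently.

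Plasma protein genes were expressed throughout. All 23 serum protein genes exceeded 1 FPKM, against 48.6% of all genes, and 17 exceeded 10 FPKM, with a median of 38.4 FPKM against 0.797 for all genes. After Alb, Trf and Rbp4 came the haem-binding hemopexin Hpx, with 478, 467 and 633 FPKM in replicates 1, 2 and 3. Ambp, the precursor of alpha-1-microglobulin and bikunin, had 616, 437 and 215 FPKM, and the hyaluronan-binding protein Itih2 had 320, 281 and 266 FPKM. The list as a whole summed to 11460.5, 10442 and 10668 FPKM, so its total differed little between libraries while single members did not move together.

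Of the 23 serum protein genes 14 were highest in replicate 3 (60.9%), 7 in replicate 1 and 2 in replicate 2. For all genes at or above 1 FPKM the shares were 40.1%, 38.6% and 21.4%. Haptoglobin (Hp), which binds free haemoglobin, had 153, 174 and 286 FPKM, Serpina3k, a protease inhibitor, had 13.9, 16.2 and 50.7, and Orm1, an acute phase glycoprotein, had 16.6, 30.8 and 46.9. Ttr, the carrier of thyroxine, had 65.9, 54.2 and 101 FPKM, far below Alb, its companion in adult plasma. Other members were lowest in replicate 3, among them the corticosteroid carrier Serpina6 (5.23, 5.26 and 2.17 FPKM) and the protease inhibitor Serpina1b (131, 90.4 and 70.1). Serpina3k, Serpina1a, Serpina1b and Orm1 have near-identical copies, so their values are uncertain.

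The apolipoproteins, which form the protein shell of plasma lipoproteins, were also all above 1 FPKM (12 of 12, median 39.5 FPKM). Apoe was followed by Apoa1, the main protein of high-density lipoprotein (449, 293 and 280 FPKM), the lipoprotein regulator Apoc1 (337, 308 and 276) and Apoc4 (175, 156 and 143). These 4 genes were highest in replicate 1 and lowest in replicate 3. A joint entry, Apoc4-apoc2, had a mean of 378 FPKM with 0 counts, so the levels of Apoc4 and Apoc2 are uncertain. Apoa2 (31.7, 39.9 and 69.2 FPKM) and Apoc3, an inhibitor of triglyceride clearance (11.5, 12.7 and 29.997), had their highest value in replicate 3.

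Of 19 coagulation genes, 18 exceeded 1 FPKM. The fibrinogen chains, which form the clot, led the list: Fgb had 1491, 1291 and 1288 FPKM, Fgg 550, 529 and 488, and Fga 365, 269 and 266. All 3 chains were highest in replicate 1. Kng1, the precursor of bradykinin, reached 82.8 ± 7.96 FPKM and prothrombin (F2) 60.2 ± 8.74 FPKM, whereas factor IX (F9) had 0.612, 0.945 and 1.75 FPKM and prekallikrein (Klkb1) had 0.370, 0.605 and 1.20. Kng1 has a close copy, and its value is uncertain.

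Complement genes were less even. C3, on which all complement pathways converge, had 441, 377 and 510 FPKM, the alternative pathway protease Cfb had 137, 123 and 158, and C4b, a component of the classical pathway, had 117, 104 and 132. The regulator Cfi reached 39.5 ± 7.36 FPKM. In contrast 4 of 16 members had means below 1 FPKM, and the mannose-binding lectin Mbl2 (1.70, 3.04 and 10.1 FPKM) and the pore-forming C9 (1.24, 1.38 and 4.87) differed between libraries by 5.94-fold and 3.91-fold. Of the 12 complement genes above 1 FPKM, 10 were highest in replicate 3, where 40.1% of all genes above 1 FPKM were highest.

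Fetal and oncofetal genes differed widely in level. Of the 20 members in the files 13 exceeded 1 FPKM (65%, against 48.6% of all genes). Afp made up most of the summed 4352 ± 173 FPKM of the list. Cd24a, a surface protein of progenitor cells, had 231, 250 and 200 FPKM, the biliary and progenitor keratin Krt19 had 198, 223 and 177, and Gpc3, a heparan sulfate proteoglycan used as a hepatoma marker, had 164, 145 and 153. These 3 genes varied little between libraries. The epithelial adhesion protein Epcam followed at 68.5 ± 4.60 FPKM.

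Other fetal genes ranged from moderate levels to near 0. Igf2, the fetal growth factor, had 3.98, 2.33 and 0.707 FPKM, against 14.4 ± 1.54 FPKM for the RNA-binding protein Igf2bp3, 7.13, 7.41 and 5.78 for Igf2bp2 and 4.71, 4.99 and 6.71 for Igf2bp1. Dlk1, a marker of hepatoblasts, had 0.0620, 0.0357 and 0.0140 FPKM, Lin28b, which blocks let-7 maturation, had 0.169, 0.131 and 0.133, and Sall4, a stem cell transcription factor, had 0, 0.00546 and 0.0106. The imprinted genes Peg3 and Peg10 also stayed below 1 FPKM in all libraries. Afp thus stood far above the other fetal genes of the list, of which 7 had means below 1 FPKM. The share of the list above 1 FPKM was still 65%, against 48.6% of all genes. H19 and Xist were not analysed here.

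Liver transcription factors were present at moderate levels. Of 25, 19 exceeded 1 FPKM and 10 exceeded 10 FPKM. Cebpb, an acute phase activator, had 162, 102 and 130 FPKM, Tbx3, which keeps hepatoblasts in the hepatic lineage, had 93.4, 82.6 and 72.6, Hnf4a, a nuclear receptor central to hepatocyte identity, had 61.9, 55.9 and 50.1, and Cebpa, a factor of mature hepatocytes, had 52.2, 39.8 and 48.7. Foxa2 (31.8 ± 3.48 FPKM), Foxa3 (29.8 ± 4.69) and Prox1 (28.3 ± 3.17) were lower.

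Several nuclear receptors that respond to bile acids, drugs and lipids were lower. The bile acid receptor Nr1h4 had 0.0853, 0.451 and 0.831 FPKM, the xenobiotic receptors Nr1i2 and Nr1i3 had means of 0.643 and 0.538, and the fatty acid sensor Ppara had 0.380, 0.275 and 0.441. All 4 were below 1 FPKM in every library. The oxysterol receptor Nr1h3 was higher, at 5.52, 5.54 and 6.48 FPKM, as was Nr5a2, a receptor that regulates bile acid genes, at 3.55, 2.97 and 3.52. Zhx2, which in mice takes part in repressing Afp after birth, had 2.62, 2.90 and 3.15 FPKM, and Zbtb20, another repressor of Afp in mice, had 1.02, 1.03 and 1.23.

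Adult hepatocyte enzymes and transporters were detected in most cases but at low levels. Of 37 members 30 exceeded 1 FPKM, 13 exceeded 10 FPKM and only Glul exceeded 100, with a median of 5.40 FPKM. Glul, which makes glutamine, had 85.1, 112 and 138 FPKM in replicates 1, 2 and 3. The alcohol dehydrogenase Adh1 had 22.01, 30.1 and 42.98, and the drug-metabolising Cyp3a11 had 18.9, 22.03 and 39.8. All 3 genes were lowest in replicate 1 and highest in replicate 3. Cyp3a11 and Cyp2c29 have near-identical copies and are uncertain.

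This order was frequent in the list: 20 of the 30 members above 1 FPKM (66.7%) were lowest in replicate 1 and highest in replicate 3 with replicate 2 between, against 19.7% of all genes above 1 FPKM. Cyp2e1, an ethanol-oxidising enzyme, had 6.61, 18.5 and 40.8 FPKM. Among urea cycle genes Arg1 had 4.28, 8.72 and 22.1, Ass1 9.02, 12.9 and 28.6, Cps1 9.13, 8.51 and 20.2, and Otc 0.221, 0.499 and 1.63. Asl, in contrast, had 7.35, 7.41 and 6.27 FPKM. The list summed to 304, 385 and 593 FPKM, a difference of 1.95-fold between replicates 3 and 1. Of the 30 members above 1 FPKM, 24 (80%) were highest in replicate 3, against 40.1% of all genes above 1 FPKM. Enzymes of bile acid synthesis differed in level, with the rate-limiting Cyp7a1 at 0.0346, 0.395 and 0.632 FPKM, Cyp8b1 at 0.916, 1.19 and 2.46 and Cyp27a1, which was even between libraries, at 14.5, 13.1 and 13.8. The bile acid export pump Abcb11 had 0.178, 0.382 and 1.14 FPKM.

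**Figure D2:**
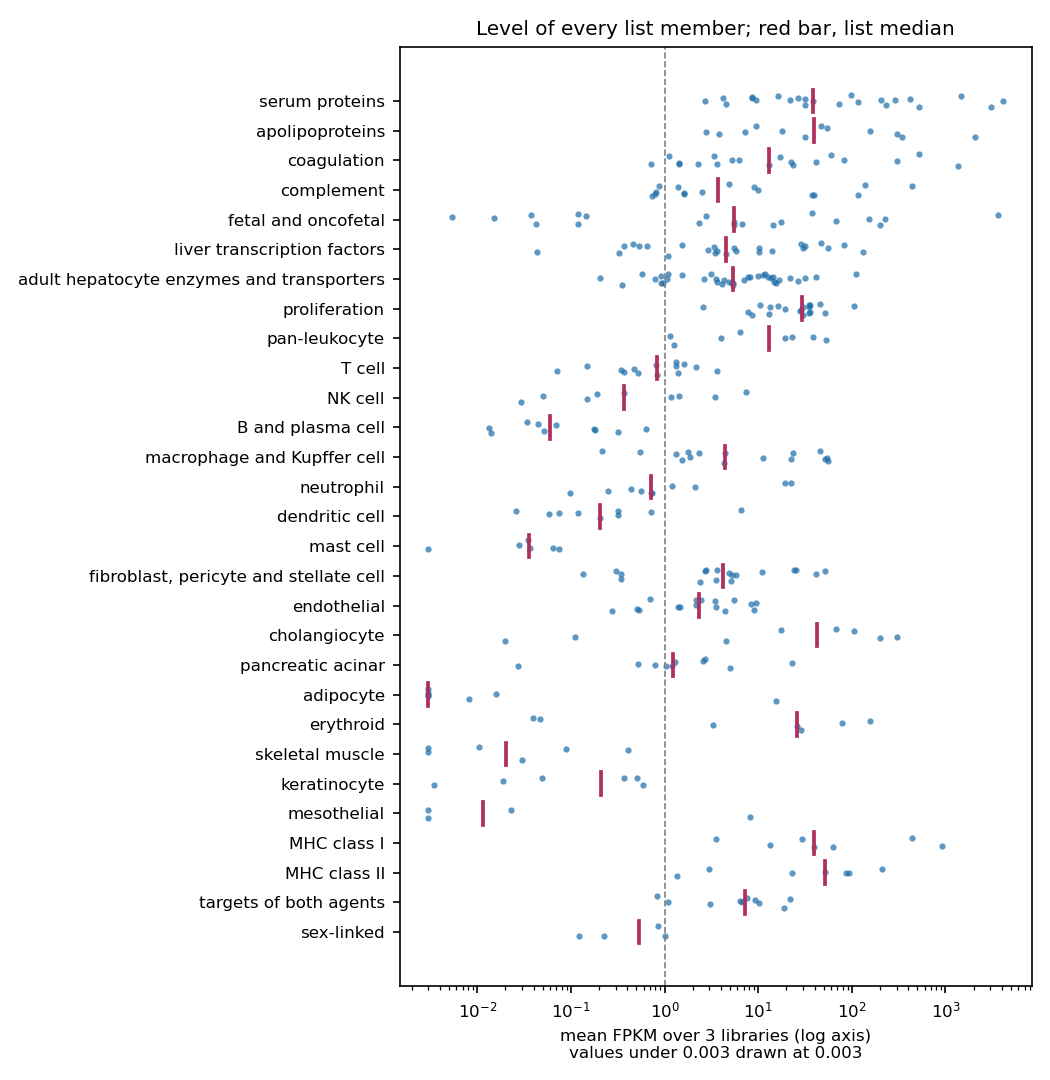
Mean FPKM over the 3 untreated libraries (x axis, log scale) of every gene of each list (y axis); points are genes, red bars are list medians and the dashed line is 1 FPKM. Plasma protein lists have medians of 38.4 and 39.5 FPKM, the T cell list 0.827 and the adipocyte list 0.

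For several enzymes and transporters the liver has an adult form and a form that is used in fetal liver, in most other tissues and in tumours. The ratio of this form to the adult form was taken within each library. The glucose transporter Slc2a1 exceeded the hepatocyte transporter Slc2a2 by 7.13 ± 1.17 on the log2 scale (SD, n = 3), from 159, 147 and 99.6 FPKM of Slc2a1 and 0.613, 0.771 and 1.79 of Slc2a2. This ratio was positive in every library and smallest in replicate 3. It was 7.80 without replicate 3 and 6.06 with a pseudocount of 1 FPKM.

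Pyruvate kinase Pkm (329, 337 and 290 FPKM) exceeded the liver form Pklr (7.47, 7.98 and 8.04) by 5.35 ± 0.15 on the log2 scale. The methionine adenosyltransferase Mat2a (90.3, 112 and 95.7 FPKM) exceeded Mat1a (4.38, 9.40 and 19.8) by 3.41 ± 1.06. The wide SD of the last pair came with Mat1a, which differed by 4.52-fold between libraries. Of the 4 pairs given here, only Afp over Alb lay below 0 (-0.20 ± 0.11), with ratios of 0.846, 0.955 and 0.824.

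**Figure D3:**
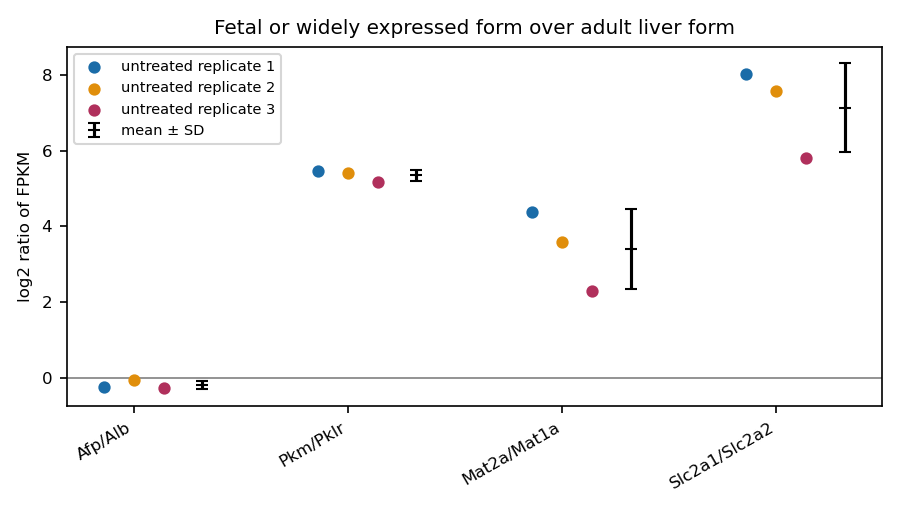
Log2 ratio of FPKM (y axis) of the fetal or widely expressed form over the adult liver form (x axis) in each untreated library; coloured points are libraries and black marks are mean ± SD of 3 libraries. The ratio is 7.13 for Slc2a1 over Slc2a2, near 0 for Afp over Alb and lowest in replicate 3 in all 4 pairs shown.

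Proliferation genes were expressed in all libraries. All 20 exceeded 1 FPKM and 17 exceeded 10 FPKM, with a median of 29.4 FPKM. The replication clamp Pcna had 117, 98.7 and 101 FPKM, the topoisomerase Top2a 57.3, 43.5 and 52.8, the ribonucleotide reductase subunit Rrm2 50.3, 40.9 and 47.1, and the helicase subunit Mcm3 40.3, 33.4 and 34.5. Replicate 1 was highest in 17 of the 20 genes, against 38.6% of all genes above 1 FPKM. The sum of the list nevertheless differed by only 1.24-fold between libraries.

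Leukocyte transcripts were detected, and the 8 pan-leukocyte genes had a median of 12.9 FPKM, against 38.4 for serum proteins, 13.1 for coagulation and 3.72 for complement. In bulk RNA, fewer cells of a type and less RNA per cell cannot be told apart, and the line itself may express some of these genes. Ptprc, the phosphatase that marks leukocytes, had 3.35, 3.33 and 5.45 FPKM. Other pan-leukocyte genes were higher, with Cd53, a tetraspanin, at 55.4, 59.7 and 42.7, Cd52, a small surface glycoprotein, at 34.8, 29.0 and 52.5, Laptm5, a lysosomal membrane protein, at 19.5, 18.2 and 30.7 and Arhgdib, a regulator of small GTPases, at 22.7, 18.6 and 17.2. These genes did not follow each other, since Cd53 and Arhgdib were lowest in replicate 3 while Ptprc, Cd52 and Laptm5 were highest there.

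Macrophage genes had the highest summed level of the immune cell type lists (282 ± 97.0 FPKM). The complement C1q chains, made mainly by macrophages, had 51.1, 44.1 and 70.3 FPKM (C1qa), 50.5, 44.4 and 68.8 (C1qb) and 44.2, 37.3 and 56.3 (C1qc). Lysozyme (Lyz2) had 41.2, 21.0 and 91.1 FPKM. The growth factor receptor Csf1r, on which macrophages depend, had 9.58, 8.45 and 15.8. Of 16 members 14 exceeded 1 FPKM, and all 14 were highest in replicate 3, where the list summed to 392 FPKM against 246 and 208 in replicates 1 and 2.

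Within this list the markers of Kupffer cells, the resident macrophages of liver, had another order than the C1q chains. Clec4f, a Kupffer cell lectin, had 0.439, 1.67 and 3.28 FPKM, the complement receptor Vsig4 0.337, 1.34 and 2.31, the scavenger receptor Marco 0.138, 0.329 and 1.19 and the phosphatidylserine receptor Timd4 0.0853, 0.199 and 0.358. All 4 were lowest in replicate 1, whereas all C1q chains were lowest in replicate 2. Clec4f differed by 7.47-fold between replicates 3 and 1 and C1qa by 1.59-fold between replicates 3 and 2. These markers stood in the same order of libraries as most adult hepatocyte genes, and their part in those values was not tested.

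T cell genes were near the limit of 1 FPKM. Cd28, a costimulatory receptor, had 2.31, 3.16 and 5.55 FPKM, the receptor chains Cd3g and Cd3e had 2.37, 1.96 and 2.17 and 1.71, 1.45 and 1.65, and the coreceptor Cd8a had 1.23, 1.40 and 1.31, from 164, 173 and 181 counts. Of 14 members 6 exceeded 1 FPKM (42.9%, against 48.6% of all genes). The other coreceptor chain Cd8b1 had 1.28, 0.886 and 1.98 FPKM, and the kinase Lck had 1.79, 1.11 and 1.04. Cd28 and Cd8b1 were highest in replicate 3, and Lck, Cd3g and Cd3e in replicate 1, so these genes had no common order of libraries.

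NK cell genes ranged from Nkg7, a granule protein shared with cytotoxic T cells (7.41, 5.86 and 9.02 FPKM), to the NK receptor Ncr1 (0.1001, 0.0352 and 0.0165 FPKM, from 6, 2 and 2 counts). Klra4, a lectin receptor with close copies and so of uncertain value, had 4.87, 3.75 and 1.84. The protease Gzma had 1.59, 1.06 and 1.64 and the pore-forming Prf1 0.553, 1.30 and 1.69. Of 9 members 4 exceeded 1 FPKM (44.4%, against 48.6% of all genes). Ncr1, which defines the type, lay near the floor of 3 counts.

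Of 10 B and plasma cell genes 0 exceeded 1 FPKM. The antibody joining chain Jchain led at 0.665, 0.376 and 0.875 FPKM, and the B cell receptor subunits Cd79a and Cd79b had means of 0.183 and 0.178. Mast cell genes had 0 to 4 counts each in every library and were at or near the floor.

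Neutrophil genes were led by the calcium-binding alarmins S100a8 (17.4, 19.3 and 31.2 FPKM) and S100a9 (15.6, 17.7 and 24.2). The receptor Csf3r had 1.20, 0.730 and 1.69 FPKM and Retnlg, a neutrophil resistin-like protein, 1.76, 1.99 and 2.53. Of 10 members 4 exceeded 1 FPKM (40%, against 48.6% of all genes), and all 4 were highest in replicate 3. Among dendritic cell genes only the integrin Itgax (5.69, 5.19 and 8.82 FPKM), which macrophages also express, exceeded 1 FPKM, and the type-defining Xcr1, Clec9a and Siglech had means of 0.0752, 0.205 and 0.0263.

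Antigen presentation genes had medians of 39.6 FPKM for MHC class I and 52.0 FPKM for class II, above the 12.9 FPKM of the pan-leukocyte genes. For MHC class I, which most cells carry, the light chain B2m had 864, 955 and 963 FPKM, H2-D1 had 369, 450 and 496, the loading chaperone Tapbp had 55.2, 58.2 and 76.2 and the peptide transporter Tap1 32.9, 39.8 and 46.3. The second classical chain measured, H2-K1, had 19.6, 23.1 and 44.5 FPKM. The heavy chains resemble each other, so the split between H2-K1 and H2-D1 is uncertain. All 7 members had their lowest value in replicate 1 and their highest in replicate 3.

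MHC class II is carried mainly by antigen-presenting cells. Its invariant chain Cd74 had 173, 148 and 305.5 FPKM, H2-Aa 78.2, 67.8 and 132, H2-Ab1 76.7, 62.3 and 119 and H2-Eb1 44.6, 38.98 and 72.4. The list summed to 397, 337 and 665 FPKM, so replicate 3 was highest and replicate 2 lowest, the same order of libraries as in the macrophage list. The activator Ciita had 0.941, 0.927 and 2.18 FPKM.

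The molecules addressed by the agents of the series were measured without treatment. Pdcd1, the receptor PD-1, had 0.899, 0.681 and 0.897 FPKM, and its ligands Cd274 and Pdcd1lg2 had 4.63, 5.53 and 8.80 and 0.822, 1.33 and 1.12. The interferon receptor chains Ifnar1 (9.63, 10.9 and 10.3 FPKM) and Ifnar2 (7.54, 7.13 and 8.10) were even between libraries. Downstream, the kinase Jak1 had 16.6, 18.7 and 21.2 FPKM and the transcription factor Stat2 6.97, 9.78 and 11.3. Jak1 and Stat2 were thus lowest in replicate 1 and highest in replicate 3, while the receptor chains differed by at most 1.14-fold.

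The summed level of fibroblast, pericyte and stellate cell genes differed more between libraries than the sum of any of the other 28 lists, although 6 lists had a higher median CV of their members. The fibrillar collagens had 33.5, 24.1 and 96.8 FPKM (Col1a1), 28.6, 18.5 and 77.1 (Col1a2) and 17.3, 10.9 and 43.7 (Col3a1). The matrix proteoglycan Dcn had 30.9, 10.1 and 35.2. Of 18 fibroblast, pericyte and stellate cell genes 14 exceeded 1 FPKM, and 13 of these 14 were highest in replicate 3. The list summed to 150, 91.8 and 330 FPKM, a 3.59-fold difference between replicates 3 and 2. Its share of the summed FPKM was 0.0528% over all libraries and 0.0326% without replicate 3. Lrat and Reln, markers of stellate cells, stayed below 1 FPKM in every library, at 0.158, 0.164 and 0.701 and 0.121, 0.108 and 0.680. Desmin (Des), of the same list, was above 1 FPKM in every library and highest in replicate 1, at 4.04, 2.70 and 3.83.

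Endothelial genes were low and also highest in replicate 3. The junction protein Pecam1 had 7.74, 7.83 and 12.6 FPKM, the diaphragm protein Plvap 5.40, 4.69 and 16.7, the secreted Egfl7 8.56, 7.93 and 8.91 and the endothelial cadherin Cdh5 3.02, 3.29 and 10.4. Of 16 members 12 exceeded 1 FPKM and all 12 were highest in replicate 3. The list summed to 38.05, 38.8 and 89.3 FPKM. Markers of liver sinusoidal endothelium were lowest in replicate 1, with Clec4g at 0.269, 1.12 and 2.97 FPKM, Lyve1 at 0.524, 0.930 and 2.70 and Stab2 at 0.245, 0.394 and 0.956.

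Biliary genes were high in part. The keratin Krt7 had 261, 329 and 309 FPKM, Krt19 and Epcam are given above with the fetal genes, and Spp1, the secreted protein osteopontin, had 143, 62.4 and 110 FPKM. The chloride channel Cftr and the annexin Anxa13 had means of 0.0196 and 0.111 FPKM. The list summed to 699, 700.2 and 686 FPKM, so its total hardly differed between libraries, but single members did not move together. Sox9 had 24.3, 7.35 and 20.8 FPKM. Sox9 and Spp1 were lowest in replicate 2, where Krt7, Krt19 and Epcam were highest. The list shares members, among them Krt19, Sox9 and Epcam, with other lists.

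Transcripts of further tissues were present in part. Of the pancreatic acinar genes, Cela1, an elastase, had 23.8, 24.6 and 20.03 FPKM, but the protease precursor Ctrb1 had 0.0794, 9.52 and 5.48, the elastase Cela2a 0.0385, 4.34 and 3.69 and the trypsinogen Prss2 0.0374, 4.53 and 3.14. Their counts were 2, 3 and 1 in replicate 1, at the floor, against 273, 153 and 122 in replicate 2 and 167, 118 and 85 in replicate 3. Trypsinogens have close copies, and the value of Prss2 is uncertain. Pnlip, Cpb1, Cpa1, Try4 and Cel had 1 count each in replicate 1, against 37 to 172 in replicate 2 and 22 to 126 in replicate 3. Replicate 1 was thus at the floor for these genes and for Ctrb1, Cela2a and Prss2, which were all well above it in the other libraries. Amy2a5 had 0, 1 and 0 counts.

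Haemoglobin, the product of red cells, was lowest in replicate 1 and highest in replicate 3, with Hbb-bs at 87.4, 155 and 228 FPKM, Hba-a1 at 48.2, 75.9 and 109, Hba-a2 at 17.7, 25.7 and 42.4 and Hbb-bt at 17.2, 27.8 and 33.2. Copies within each haemoglobin cluster are near-identical, so only their joint level is certain. The haem synthesis enzyme Alas2 had 1.88, 3.28 and 4.78 FPKM. All 5 members above 1 FPKM shared this order of libraries.

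Of 7 adipocyte genes only Fabp4 exceeded 1 FPKM, a fatty acid binding protein that endothelial cells and macrophages also make (9.85, 14.3 and 22.7 FPKM). Adipoq, Plin1, Cfd and Lep had 0 counts in all libraries, which allows up to 0.0921 to 0.0958 counts per M each. Skeletal muscle (0 of 6) and keratinocyte genes (0 of 6) did not reach 1 FPKM, with Myh4 at 0 counts. Of the mesothelial genes Msln, which some carcinomas also express, had 6.79, 5.92 and 11.9 FPKM, while Lrrn4 had 0 counts.

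Y-linked genes were detected at low levels. Ddx3y, an RNA helicase, had 0.694, 0.640 and 1.70 FPKM and Eif2s3y, a translation factor, 0.611, 0.682 and 1.26, and Kdm5d and Uty had means of 0.225 and 0.121. The 4 genes summed to 1.54, 1.56 and 3.52 FPKM and were highest in replicate 3, as were the macrophage, endothelial and fibroblast lists. The labels give no sex for the line or for any host, and the part of these values in the lists was not tested.

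**Figure D4:**
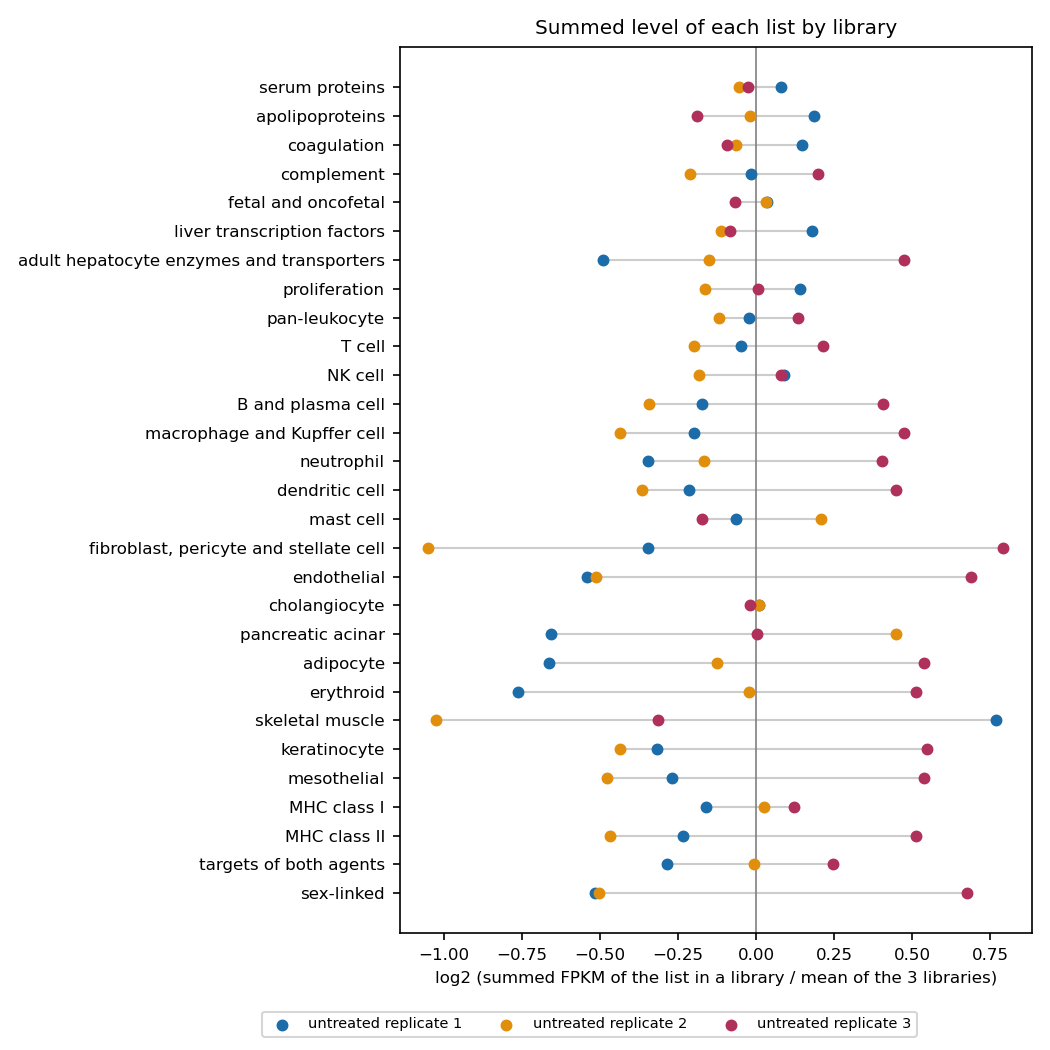
Log2 of the summed FPKM of each list in a library over the mean of the 3 untreated libraries (x axis) by list (y axis); points are libraries. Replicate 3 is highest in the fibroblast (330 FPKM), endothelial (89.3) and macrophage (392) lists, while the cholangiocyte and fetal lists differ by at most 1.07-fold.

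Most genes were even between the libraries in spite of these differences. Among the 4971 genes at or above 10 FPKM the median coefficient of variation (CV, SD over mean) was 7.26%, 4537 (91.3%) lay below 20% and 48 (0.966%) exceeded 50%. Spread exceeded counting error at all levels: the median CV was 11.1% for genes of 1 to under 10 FPKM, where counting alone gives 3.97%, and 10.7% for the 56 most abundant genes, where it gives 0.502%. The biological coefficient of variation, the spread beyond counting estimated by edgeR over 12876 genes, was 0.207. It was 0.135 without replicate 3, against 0.221 without replicate 1 and 0.242 without replicate 2.

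The genes with the widest spread among those of at least 10 FPKM were of mixed kinds. Fos, an immediate early transcription factor, had 7.35, 5.47 and 36.2 FPKM (CV 105%). Mettl7b, a membrane methyltransferase, had 8.65, 20.7 and 78.4, and Arg1 followed with a CV of 79.4%. Replicate 3 was highest in these 3 genes. Sprr2e, a cornified envelope protein, had 42.6, 12.5 and 5.53 FPKM and Cyp2a4, a steroid hydroxylase with a near-identical copy and so of uncertain value, 113, 51.7 and 17.9, both highest in replicate 1. Of the 40 genes with the highest CV, 33 were highest in replicate 3, 7 in replicate 1 and 0 in replicate 2. For all genes at or above 1 FPKM these shares were 40.1%, 38.6% and 21.4%. The 40 genes were picked for their spread, which favours a library that stands apart.

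A second set among these 40 genes, named after the values were seen, was low in replicate 2. The immediate early factor Egr1 had 85.8, 23.3 and 100.1 FPKM, Ier3, a stress-induced survival gene, 82.0, 18.7 and 91.9, and Ddit4, an inhibitor of mTOR signalling, 190.0, 55.0 and 178. Fos did not share this pattern, since it was low in both replicates 1 and 2. The 5 most even genes were Psmd3, a proteasome subunit (72.5, 72.4 and 72.3 FPKM), Ogfr, Strap, Prkag1 and Dnaaf5, with CVs of 0.112% to 0.242%. Counting alone gives a median CV of 1.96% at such levels, so their order has no weight.

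**Figure D5:**
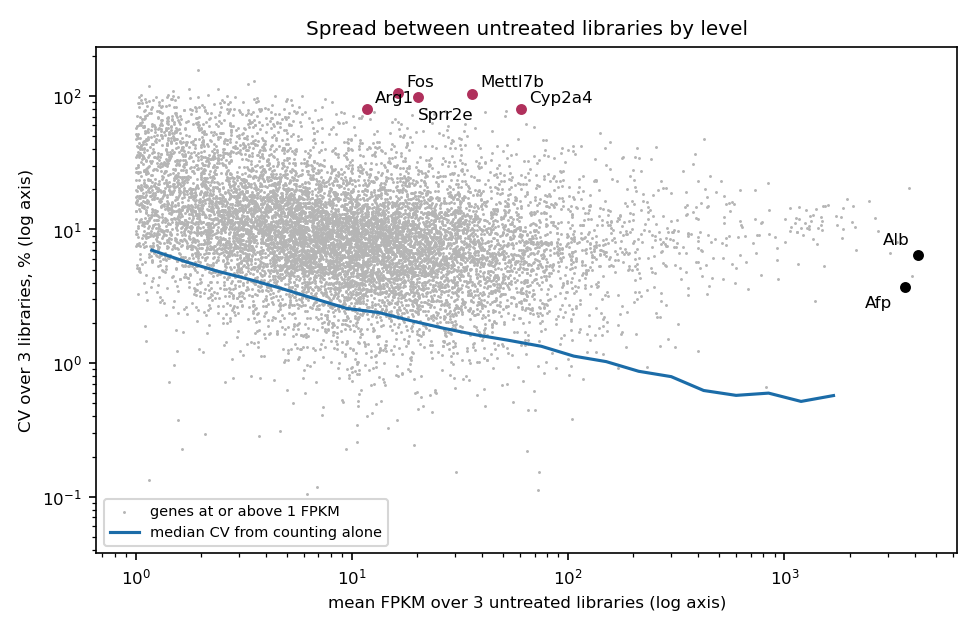
CV over the 3 untreated libraries (y axis, log scale) against mean FPKM (x axis, log scale) for genes at or above 1 FPKM; grey points are genes, the blue line is the median CV expected from counting alone, red points are the 5 genes with the highest CV at 10 FPKM or more and black points are Alb and Afp. Afp (CV 3.72%) and Alb (6.41%) vary little, and Fos reaches 105%.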

How the data were processed

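Total RNA of 3 untreated Hepa1-6 libraries was sequenced. The submitters' processing notes name HISAT2 (2.1.0), HTSeq, Cufflinks and the mm10 assembly, but not the role of each tool. Annotation and strand setting were not given in the sources. From the authors came whole-number counts per gene and, as a separate deposited table, FPKM values. Columns were matched to samples by name and grouped by the treatment label.

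Means, SDs and shares were computed from the FPKM as deposited, with Python 3.11.15 and pandas 2.3.3. No groups were compared and no test was run. The spread beyond counting was estimated with edgeR 4.0.16 (R 4.3.3) from the counts, with filterByExpr (minimum count 10), TMM and 1 common mean, and checked on simulated data. The 29 lists hold 362 genes, of which 360 were found. Members and lists were chosen with earlier results of these data known. Named by rule were the 30 genes of highest mean FPKM, the 4 highest of each list, genes at 0 counts, pair members and the 5 highest and 5 lowest CVs; other genes were named, and the promoter letters chosen, after values were seen. Some genes and pairs named by this rule are not reported here. Floors cover counting error only. Alternatives were other thresholds and filters, TPM scaling, shares of counts, medians, pseudocounts, RLE and leaving out each library.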

Additional observations from a re-analysis of the deposited data

How the results depend on the processing

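No paired analysis was possible because no groups were compared and no result comes from a test. The number of genes at or above 1 FPKM stayed within 1.5 times of 10624 in every setting tried. As a share of counts instead of summed FPKM, the 50 most abundant genes held 14.6%. Rescaled so that each library summed to 1 M, Afp reached 9912. The shares of most lists moved by more than the SD between libraries when counts were used in place of FPKM, and counts are not corrected for length. They were then 0.648% for apolipoproteins, 0.819% for coagulation, 0.644% for complement, 0.196% for liver transcription factors, 0.246% for proliferation, 0.216% for MHC class I and 0.156% for cholangiocyte genes. For the immune lists they were 0.0339% (pan-leukocyte), 0.00490% (T cell), 0.00197% (NK cell), 0.000566% (B and plasma cell), 0.00371% (neutrophil), 0.00453% (dendritic cell) and 3.3e-05% (mast cell). For the others they were 0.112% (fibroblast), 0.0246% (endothelial), 0.00518% (pancreatic acinar), 0.0164% (erythroid), 0.000690% (keratinocyte), 0.00326% (mesothelial), 0.0602% (targets of both agents) and 0.00137% (sex-linked). In counts not corrected for length, the log2 ratios were -0.061 for Afp over Alb and 5.63 for Pkm over Pklr. With a pseudocount of 1 FPKM the log2 ratio was 5.18 for Pkm over Pklr and 6.06 for Slc2a1 over Slc2a2. Without single libraries the biological coefficient of variation was 0.135 to 0.242. Without replicate 3 the fibroblast list held 0.0326% of FPKM in place of 0.0528%, and the log2 ratio of Slc2a1 over Slc2a2 was 7.80 in place of 7.13. Without replicate 1 the skeletal muscle list held 9.7e-05% in place of 0.000147%. Depth limits the lists at the floor, such as mast cell genes.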
